A study of Mus musculus with 4 samples.

Results

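The 10 gut hormone genes described here form a fixed list, and the rule that names them uses no measured value. The 10 genes were, however, chosen with earlier results of these data known. They are Gip, Gcg, Cck, Sct, Sst, Pyy, Nts and Ghrl, which encode peptide hormones, Tph1, which encodes the enzyme that starts serotonin synthesis in the gut, and Chga, which encodes the granule protein chromogranin A. All 10 were found by symbol among the 32227 genes of the feature lists. A cell was called positive for a gene when it held at least 3 UMIs of it, a UMI being a barcode that marks 1 captured RNA molecule. After filtering, 30538 cells remained, of which 601 were positive for at least 1 of the 10 genes and 8848 held at least 1 UMI of one of them.

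The libraries came from intestinal epithelium of 2 wild-type (WT) mice at postnatal day 6 (P6), with a jejunum and an ileum segment taken from each mouse, and no treatment was given. Mouse 1 (batch 1, labelled male) gave the replicate 1 libraries and mouse 2 (batch 2, labelled female) the replicate 2 libraries, so mouse, labelled sex and batch cannot be told apart. Epithelium was released with EDTA, dissociated with dispase and barcoded by PIPseq, so the muscle and nerve layers were left behind by design. The sex labels did not match the data. In mouse 1, labelled male, Xist, the transcript of the inactive X chromosome, stood at 537 and 467 CPM (UMIs scaled to a common library total), and in mouse 2, labelled female, it stood at 0.712 and 0.984. Y-linked Eif2s3y stood at 0.0228 and 0.109 CPM in mouse 1 but at 89.1 and 66.4 in mouse 2. All 4 libraries therefore carry a sex label opposite to their RNA, the libraries of a mouse match each other, and sex enters no comparison here. UMIs were counted near the 3′ end of transcripts and are not scaled by length, so no order of levels between different genes is read from them.

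Gut hormones are made by enteroendocrine cells, scattered epithelial cells that sense nutrients in the lumen and release peptides or serotonin from granules on their basal side. The peptide-rich cells are often called K (Gip), L (Gcg and Pyy), I (Cck), S (Sct), D (Sst), N (Nts) and X (Ghrl) cells, and the serotonin cells are called enterochromaffin cells. One cell can make several of these hormones, and the mixture is known to change along the gut and as a cell matures. GIP and GLP-1, a product of Gcg, raise insulin release, CCK drives gallbladder and pancreatic secretion, secretin drives bicarbonate secretion, somatostatin restrains other hormones, PYY and neurotensin slow the upper gut, and ghrelin stimulates appetite.

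Promoter sequences are shown for the members whose upstream 250 bases held a searched motif, since several of these genes were found in the same cells. They were taken from RefSeq (GRCm38.p6), in which all 10 members matched with 15 start sites, and are written 5′ to 3′ on the gene's own strand, ending at the base before the start site. Capitals mark matches to CAGATG (an E-box, either strand), CCGGAA (an ETS core, either strand), TATAAA (gene strand only) and TGACGTCA (a cAMP response element, a palindrome). The Gcg window (chr2:62483654-62483903, minus strand) held an ETS core, a pair of E-boxes and a TATA box.
Gcg: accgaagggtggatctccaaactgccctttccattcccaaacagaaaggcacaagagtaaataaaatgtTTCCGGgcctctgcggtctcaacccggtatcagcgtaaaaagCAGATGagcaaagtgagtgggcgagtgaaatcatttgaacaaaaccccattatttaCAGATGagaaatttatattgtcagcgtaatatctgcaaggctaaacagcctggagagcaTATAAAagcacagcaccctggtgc
The Cck window (chr9:121495695-121495944, minus strand) held 1 E-box, 30 bases before the start.
Cck: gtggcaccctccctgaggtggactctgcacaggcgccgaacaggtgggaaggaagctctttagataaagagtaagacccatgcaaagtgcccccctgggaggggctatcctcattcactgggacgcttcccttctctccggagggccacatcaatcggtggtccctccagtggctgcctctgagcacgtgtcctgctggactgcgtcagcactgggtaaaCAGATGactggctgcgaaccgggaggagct
The Sct window (chr7:141279134-141279383, minus strand) held 1 E-box and a TATA box, 242 and 28 bases before the start.
Sct: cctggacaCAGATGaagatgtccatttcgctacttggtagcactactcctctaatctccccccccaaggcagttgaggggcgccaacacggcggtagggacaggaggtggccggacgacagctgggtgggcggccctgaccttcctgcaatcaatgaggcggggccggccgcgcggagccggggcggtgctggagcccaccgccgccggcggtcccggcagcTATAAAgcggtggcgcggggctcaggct
The Sst window (chr16:23890845-23891094, minus strand) held the cAMP response element, 48 bases before the start.
Sst: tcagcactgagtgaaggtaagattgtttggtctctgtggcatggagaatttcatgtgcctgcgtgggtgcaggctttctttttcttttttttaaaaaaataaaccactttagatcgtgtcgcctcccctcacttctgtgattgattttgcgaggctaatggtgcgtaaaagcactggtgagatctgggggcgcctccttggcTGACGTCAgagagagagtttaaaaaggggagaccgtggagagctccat
Among 32851 promoter windows of the same length, 14.4% held the E-box, 12.0% the ETS core, 7.59% the TATA box and 1.55% the cAMP response element. In the Gcg window the E-boxes lay 139 and 83 bases, the ETS core 181 bases and the TATA box 24 bases before the start. A match describes letters in a window and is neither a binding site nor a cause of any value below.

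To follow the genes in the cells that make hormones, cells were chosen without them, by at least 3 of 19 other endocrine genes such as Chgb, Neurod1, Pcsk1 and Insm1. These panel-positive cells are called enteroendocrine-like here, and the genes with the next largest excess over other cells after Chgb were Chga, Pyy and Neurod1. Their number was 81 in ileum 1, 74 in ileum 2, 68 in jejunum 1 and 47 in jejunum 2, which is the order of libraries in all lists of 4 values here. These were 1.11%, 0.870%, 0.756% and 0.821% of kept cells. They held few molecules, with medians of 3294, 3443, 3164.5 and 5453 UMIs, whereas the 30007 background enterocytes (at least 3 of 7 enterocyte genes and at most 1 panel gene) had medians of 12482, 11092, 4714.5 and 5888. Depth per enterocyte therefore went with region, and depth per enteroendocrine-like cell did not split the libraries that way. Libraries shared at most 1 cell barcode with each other. No panel-positive cell was among the 6% of cells with the most UMIs in its library.

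Markers of other cell types were low or absent in the panel-positive cells, except those of enterocytes and, at a lower level, goblet and stem cells. Mast cell and enteric neuron genes were low but above their levels in background enterocytes in every library. Summed over 7 enterocyte genes the level was 5938 to 11167 CPM, against 16017 to 38918 CPM in background enterocytes, and it was higher in both jejunum libraries in either class. The 8 goblet genes were all seen, at a summed 759 to 1207 CPM, and the 7 stem and cycling genes at 192 to 374 CPM. Of the other lists, 5 of 8 tuft, 6 of 8 enteric neuron, 4 of 9 mast cell and 3 of 7 immune genes were seen. For pancreas, stroma, glia and stomach it was 3 of 7, 2 of 7, 2 of 5 and 0 of 6 genes. Each of these lists summed to at most 227 CPM. Among the listed genes at 0 were Mcpt1, Cd3e, Ins1, Col1a1, Sox10 and Gkn1. Mast cells and enteric neurons can also make Tph1 or peptide RNA, and their lists summed to 17.9 to 69.7 and 115 to 227 CPM in these cells. In background enterocytes the same lists summed to 1.47 to 5.85 and 58.1 to 96.2 CPM. The source of this RNA was not tested.

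Nearly all cells positive for Tph1, Cck, Chga, Ghrl and Sst were panel-positive, while most cells positive for Sct were not. Of positive cells, 103 of 103 for Tph1, 50 of 51 for Cck, 208 of 215 for Chga, 27 of 28 for Ghrl, 11 of 12 for Sst, 35 of 41 for Pyy, 23 of 29 for Gcg and 4 of 6 for Gip were in the panel-positive class. For Nts it was 14 of 27 and for Sct 122 of 454. Panel-positive cells held 92.0% of all Chga UMIs and 89.0% of Sst UMIs, but 38.7% of Nts, 29.2% of Gip and 20.2% of Sct UMIs. Sct, Gip and Nts were thus the members with most of their RNA outside the enteroendocrine-like class.

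Chga was the most frequent of the genes inside the enteroendocrine-like class. Cells positive for Chga numbered 67, 56, 54 and 38, or 0.917%, 0.658%, 0.600% and 0.664% of kept cells (exact 95% intervals 0.711% to 1.16%, 0.498% to 0.854%, 0.451% to 0.782% and 0.470% to 0.910%). The intervals of the regions overlap, and all such intervals cover counting error only. In positive cells the median was 14, 17.5, 20 and 33.5 UMIs, with maxima of 37, 46, 64 and 74. The 2 ileum medians averaged 15.75 UMIs and the 2 jejunum medians 26.75, with no test since values under 3 are removed by the rule.

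Tph1 was positive in many cells of the class, with similar counts from cell to cell. Positive cells numbered 25, 32, 22 and 24, and their medians were 4, 5, 6.5 and 9 UMIs, with no cell above 22. The richest cell held at most 8% of a library's Tph1 UMIs, so no library total rested on a few cells. In the panel-positive class 30.9%, 43.2%, 32.4% and 51.1% of cells were positive. The ileum and jejunum overlapped in this share.

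The L-cell genes Gcg and Pyy were found in few cells, some of them with many molecules. Gcg-positive cells numbered 12, 4, 11 and 2, with median 44.5, 6, 70 and 16.5 UMIs and maxima of 140, 48, 212 and 21. Pyy-positive cells numbered 15, 9, 13 and 4, with median 10, 10, 27 and 51 UMIs and maxima of 282, 83, 84 and 110. For both genes mouse 1 had more positive cells than mouse 2 in each region. At full depth the share of kept cells was higher in the ileum within each mouse, with overlapping counting intervals. For Gcg the share was 0.164% against 0.122% in mouse 1 and 0.0470% against 0.0349% in mouse 2. For Pyy the share was 0.205% against 0.144% and 0.106% against 0.0699%. With each cell thinned to an equal number of UMIs this order was absent for Gcg, at 0.0965% against 0.0972% and 0.0245% against 0.0366%. For Pyy the order was then reversed in mouse 1, at 0.0965% against 0.121%, and kept in mouse 2, at 0.0734% against 0.0549%. A single cell of ileum 1 held 140 Gcg, 282 Pyy, 98 Sct, 24 Nts, 18 Cck and 9 Chga UMIs and 0 of Tph1, in a total of 5547.

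Sst was the most concentrated of the genes. Only 4, 5, 2 and 1 cells were positive, with maxima of 155, 257, 391 and 31 UMIs. The richest cell alone held 57.6%, 34.3%, 53.5% and 64.6% of all Sst UMIs of its library, and the 2 richest cells of jejunum 1 held 89.9%. Any library total of Sst is therefore a count of very few cells. The jejunum 2 cell with 31 UMIs carried 2 panel genes and so fell outside the panel-positive class, where 0 of 47 cells of that library were positive, which allows a share of up to 6.38%.

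Ghrl, Cck and Nts lay between these patterns. Ghrl-positive cells numbered 6, 9, 11 and 2, with medians of 9, 13, 9 and 7 UMIs and a maximum of 174 in jejunum 1 against 7 in jejunum 2. Cck-positive cells numbered 13, 8, 17 and 13, with medians of 10, 3.5, 34 and 5 UMIs and maxima of 38, 23, 161 and 118. Nts-positive cells numbered 11, 8, 6 and 2, with medians of 6, 3, 61 and 62.5 UMIs. Of these cells 5, 1, 6 and 2 were panel-positive, and 6 in ileum 1 and 7 in ileum 2 were background enterocytes. The Nts medians of the 2 regions thus describe different mixtures of cells. For Cck and Nts the richest cells of both jejunum libraries exceeded those of both ileum libraries, with Nts maxima of 38, 22, 194 and 95.

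Among kept cells, Gip reached the rule of 3 UMIs in the jejunum only. There were 4 positive cells in jejunum 1 and 2 in jejunum 2, with maxima of 41 and 19 UMIs. In the ileum 33 and 40 cells held 1 UMI each and none held more, so the share of positive cells was 0 of 7309 and 0 of 8505, which allows shares of up to 0.0410% and 0.0353%. The jejunal shares of 0.0444% and 0.0349% (exact 95% intervals 0.0121% to 0.114% and 0.00423% to 0.126%) are of the size of these limits, so by cell number alone a difference was not detectable at this depth.

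Sct gave the most positive cells of the 10 genes. They numbered 174, 150, 66 and 64, with medians of 3, 3, 4 and 4 UMIs, at or next to the rule's limit. Just outside the rule 1114 cells held exactly 2 Sct UMIs, and just inside it 261 of the 454 positive cells held exactly 3, whereas these numbers were 21 and 10 for Chga, 33 and 18 for Tph1, 34 and 14 for Cck, 58 and 9 for Nts, 20 and 8 for Pyy, 10 and 3 for Gcg, 3 and 0 for Sst, 1 and 4 for Ghrl and 2 and 1 for Gip. Sct is thus the member whose number of positive cells leaned most on the limit of 3.

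The share of cells positive for any of the 10 genes was therefore a share set mostly by Sct. It was 3.15%, 2.22%, 1.10% and 1.45%, with means of 2.68 ± 0.654% in the ileum and 1.28 ± 0.248% in the jejunum (SD, n = 2 libraries). The groups did not overlap, with an exact two-sided permutation p of 0.333, which is the smallest p that 2 against 2 libraries can give. After cells were thinned to 2000 UMIs, with 54, 335, 767 and 255 shallower cells left out, the shares were 0.868%, 0.722%, 0.692% and 0.750%, and the groups overlapped (exact permutation p = 0.667). At full depth the share was 8.08% against 3.61% (region means) at 2 UMIs and 1.02% against 0.731% at 5 UMIs. Without Sct the shares were 1.20%, 0.858%, 0.722% and 0.786%.

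Outside the enteroendocrine-like class, Sct molecules were spread thinly over enterocytes. At least 1 Sct UMI was seen in 27.7%, 23.7%, 15.3% and 16.3% of background enterocytes. At an equal 2000 UMIs per cell the shares were 5.86%, 5.72%, 6.11% and 4.89%, so the regional order at full depth was not present at equal depth. By level, Sct stood at 31.5, 27.8, 27.6 and 25.2 CPM in background enterocytes and at 1233, 1008, 2881 and 2306 CPM in the panel-positive cells of the same libraries.

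The spread of Sct did not follow that of Chga, which was nearly restricted to the enteroendocrine-like class. Background enterocytes with a Chga UMI made up 0.986% to 1.49% of cells, or 0.162% to 0.565% at 2000 UMIs. Per Chga UMI there were 0.469, 0.293, 0.559 and 0.502 Sct UMIs in panel-positive cells and 36.2, 28.4, 14.4 and 13.6 in background enterocytes. Cells with at least 3 stem or cycling genes held 5.17, 9.33, 2.14 and 2.00 Sct UMIs per Chga UMI, from 15 to 31 Sct UMIs a library, and their Sct level was 11.4, 12.7, 5.38 and 8.76 CPM against 28.8, 25.02, 29.6 and 26.9 CPM in enterocytes without any of those genes. The ratios of the stem or cycling cells rest on 6, 3, 7 and 13 Chga UMIs. Whether the Sct UMIs of enterocytes were made in them was not tested.

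**Figure D1:**
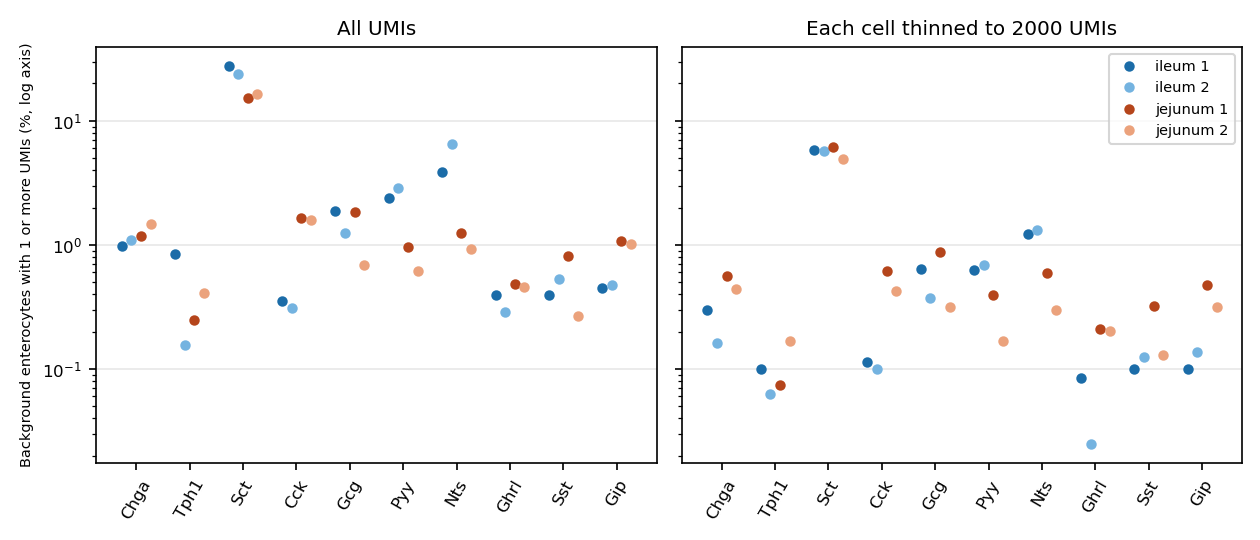
Percentage of background enterocytes with at least 1 UMI of each gene (log axis) in the 4 libraries, at all UMIs (left) and with each cell thinned to 2000 UMIs (right). Sct stands apart at 15.3% to 27.7% on the left and 4.89% to 6.11% on the right, where the libraries of the regions overlap.

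Nts also had much of its RNA outside the class, and there its level was higher in both ileum libraries. Background enterocytes held Nts at 3.62, 6.28, 1.92 and 1.16 CPM. At 2000 UMIs per cell 1.22% and 1.31% of ileal and 0.589% and 0.296% of jejunal background enterocytes held an Nts UMI. The regional difference in these cells was 1.64 ± 0.39 on the log2 scale, with higher values in the ileum (edgeR quasi-likelihood test, adjusted p = 0.0628), and 1.41 at equal depth (adjusted p = 0.0446). The other 7 genes were at 0.159 to 2.90 CPM in background enterocytes in every library. Among them Pyy was also higher in both ileum libraries, at 2.12, 2.61, 1.51 and 0.764 CPM. Its log2 difference was 1.00 and was not called (edgeR quasi-likelihood test, adjusted p = 0.149). At 2000 UMIs per cell 0.624%, 0.684%, 0.393% and 0.167% of these cells held a Pyy UMI.

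Co-detection showed that Tph1 and the peptide genes Gcg, Pyy and Nts were mostly positive in different cells. Of 45 pairs of genes, 27 shared at least 5 positive cells, 9 shared 1 to 4 and 9 shared none. All 103 Tph1-positive cells were also Chga-positive, and they made up 47.9% of the 215 Chga-positive cells. In contrast, Tph1 shared 0 cells with Gcg, Nts, Sst and Gip, 1 with Pyy and 2 with Ghrl. Of the 270 panel-positive cells, 103 were positive for Tph1, 39 for Gcg, Pyy or Nts, and 1 for both, and by library these numbers were 25, 13 and 0 in ileum 1, 32, 9 and 0 in ileum 2, 22, 12 and 0 in jejunum 1, and 24, 5 and 1 in jejunum 2. No cell was positive for both in ileum 1, ileum 2 and jejunum 1, and 1 of 5 was in jejunum 2.

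**Figure D2:**
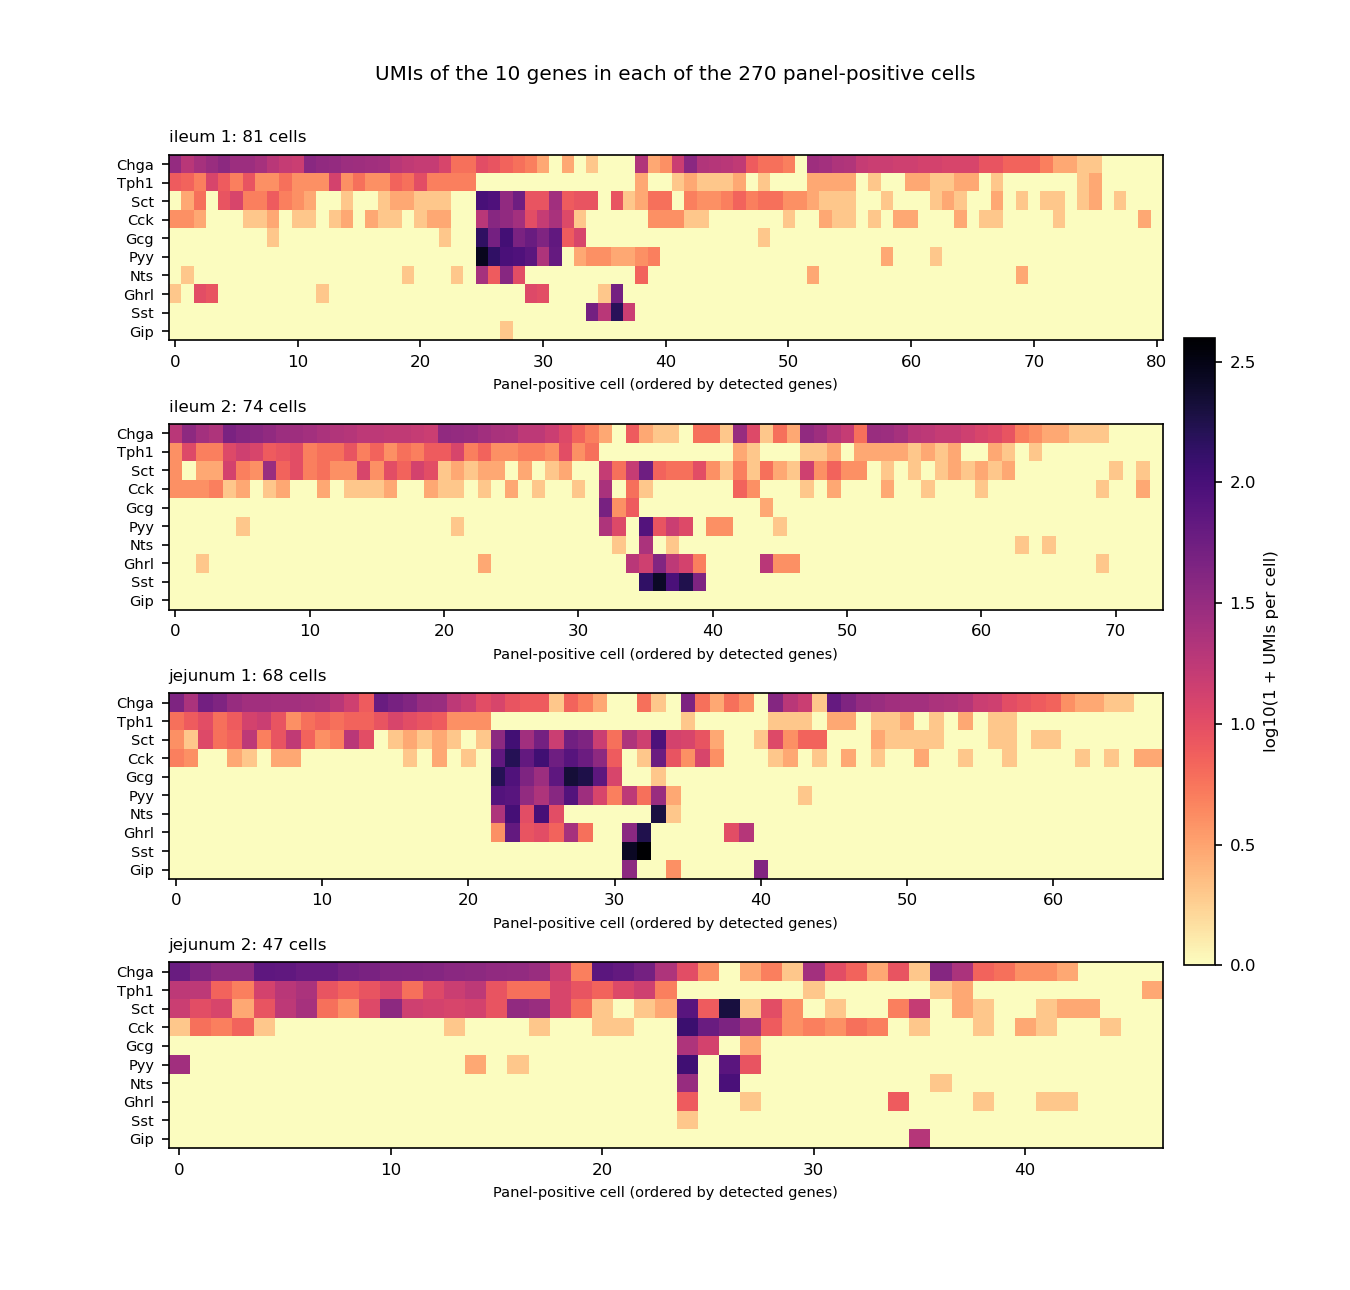
UMIs of the 10 genes (rows, color as log10 of 1 plus the UMIs) in each of the 270 panel-positive cells (columns, ordered by the genes detected), with 1 panel for each of the 4 libraries. In every library the dark squares of the Gcg row lie apart from the filled Tph1 and Sst squares, with few exceptions at 1 UMI, while Chga and Sct run across several sets.

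The peptide set formed a group of overlapping genes around Gcg. Of 29 Gcg-positive cells, 25 (86.2%) were positive for Sct, 23 (79.3%) for Pyy, 22 (75.9%) for Cck, 11 (37.9%) for Ghrl and 10 (34.5%) for Nts. Taken from the other gene, the Gcg-positive cells were 56.1% of Pyy-positive, 43.1% of Cck-positive and 5.51% of Sct-positive cells. Chga, a granule protein often used as a general enteroendocrine marker, was positive in 14 of the 29 Gcg-positive cells (48.3%), 16 of 41 Pyy-positive cells (39.0%) and 10 of 27 Nts-positive cells (37.0%). These totals include positive cells outside the enteroendocrine-like class. Within the class it was 14 of 23 (60.9%) for Gcg, 16 of 35 (45.7%) for Pyy and 10 of 14 (71.4%) for Nts. In 5 cells, 4 of them in jejunum 1 and 1 in jejunum 2, Gcg, Cck, Sct, Pyy, Nts, Ghrl and Chga were positive together. The richest Nts cell, in jejunum 1, held 194 Nts, 92 Sct, 58 Cck and 29 Pyy UMIs but 1 of Gcg.

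Sst-positive cells formed a small separate set with Ghrl and Pyy. Of 12 Sst-positive cells, 8 (66.7%) were Ghrl-positive, 8 (66.7%) were Pyy-positive and 9 were Sct-positive, while 2 were Chga-positive and none was positive for Gcg, Cck or Tph1. The cell with the most Sst UMIs, 391 in jejunum 1, also held the most Ghrl UMIs of that library, 174, with 13 of Sct. The same cell was highest for Sst and Ghrl in ileum 1 (155 and 51 UMIs) and in ileum 2 (257 and 42).

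Sct crossed these sets, and Gip was found both alone and beside other peptides. Sct was positive in 57 of 103 Tph1-positive cells (55.3%), 35 of 51 Cck-positive cells (68.6%), 33 of 41 Pyy-positive cells (80.5%) and 22 of 28 Ghrl-positive cells (78.6%). Cck was shared between the sets as well, with 11 cells in common with Tph1 and 22 with Pyy. Of the 6 Gip-positive cells, 3 were Sct-positive, 1 each was positive for Cck, Sst, Pyy and Ghrl, and 0 were positive for Chga, Gcg, Nts or Tph1. A cell of jejunum 1 with 35 Gip UMIs also held 266 of Sst, 36 of Ghrl, 21 of Sct and 17 of Pyy, whereas the cell with 41 Gip UMIs held 1 of Sct and no UMI of the other 8 genes.

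**Figure D3:**
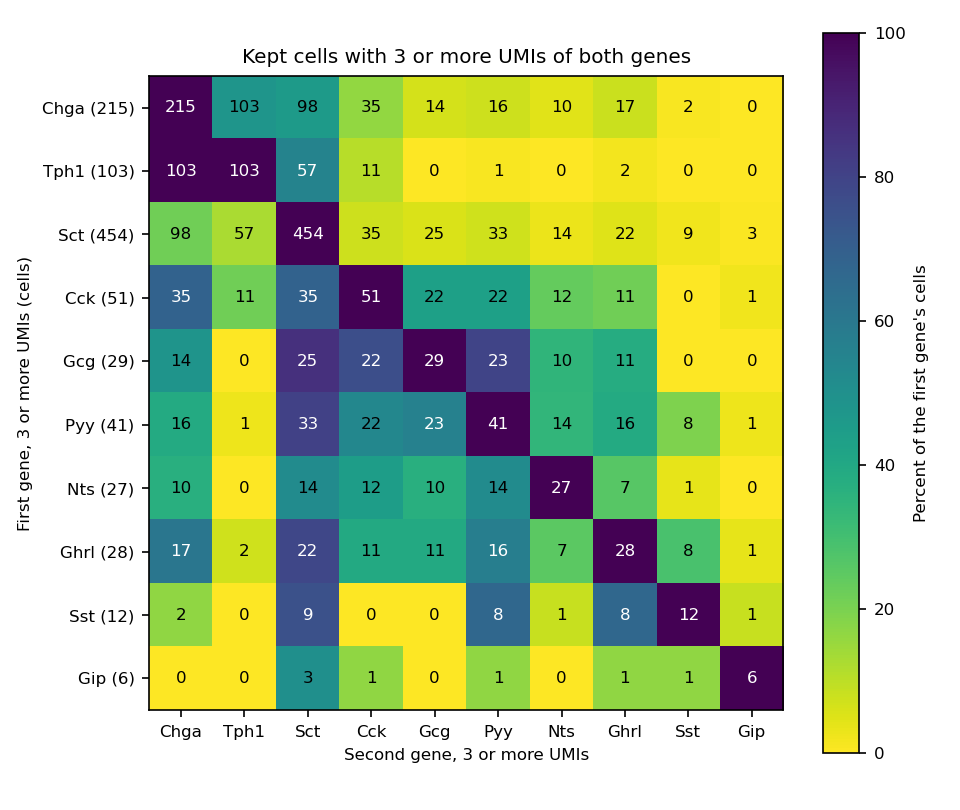
Number of kept cells with 3 or more UMIs of both genes (printed in each square), colored by the percentage of the cells positive for the gene on the row. The Tph1 row is filled at Chga (103 cells, 100%) and Sct (57 cells, 55.3%) and at 0 for Gcg, Nts, Sst and Gip, whereas the Gcg row is filled at Sct (86.2%), Pyy (79.3%) and Cck (75.9%).

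By combination, the commonest enteroendocrine-like cells were positive for Chga alone (56 of 270), for Sct, Tph1 and Chga (51), for Tph1 and Chga (38) and for none of the 10 genes (29). Cells with at least 2 of the 8 peptide genes numbered 16, 12, 16 and 11 in ileum 1, ileum 2, jejunum 1 and jejunum 2, or 19.8%, 16.2%, 23.5% and 23.4% of the class. Both jejunum shares lay above both ileum shares, but each rests on 16 cells or fewer and was not tested. Among Chga-positive cells, 62.7%, 76.8%, 68.5% and 81.6% were positive for another of the genes (72.4 ± 8.42%, mean ± SD over n = 4 libraries), and the regions overlapped. A doublet, a pair of cells under 1 barcode, would also place genes together, and its part was not tested.

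Of the 22 listed transcription factor genes, some were seen mostly with one of these sets and others with several. Etv1, which encodes an ETS transcription factor, had a UMI in 22 of 23 Gcg-positive, 12 of 14 Nts-positive and 24 of 35 Pyy-positive panel-positive cells but in 5 of 103 Tph1-positive ones. Pax6, a factor of several endocrine lineages, was seen in 19 of 23 Gcg-positive and 14 of 103 Tph1-positive cells. Lmx1a, a factor of serotonin cells, was seen in 91 of 103 Tph1-positive, 1 of 23 Gcg-positive and 0 of 11 Sst-positive cells. These shares are descriptions with no test, and Pax6, Isl1, Neurod1 and Insm1 are themselves in the panel that chose the cells.

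Other factors were seen in the Sst and Ghrl cells or in several sets. Isl1 was seen in 10 of 11 Sst-positive, 21 of 27 Ghrl-positive and 19 of 23 Gcg-positive cells and in 2 of 103 Tph1-positive cells. Hhex and Pdx1, both known from pancreatic islet cells as well, were seen in 7 and 6 of 11 Sst-positive cells. Neurod1 and Insm1, general factors of the lineage, were seen in 23 and 17 of 23 Gcg-positive cells and in 92 and 46 of 103 Tph1-positive cells. Neurog3, the transient factor of endocrine progenitors, was seen in 32 of 270 cells of the class, in 2 of 103 Tph1-positive cells and in none of the 23 Gcg-positive cells.

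**Figure D4:**
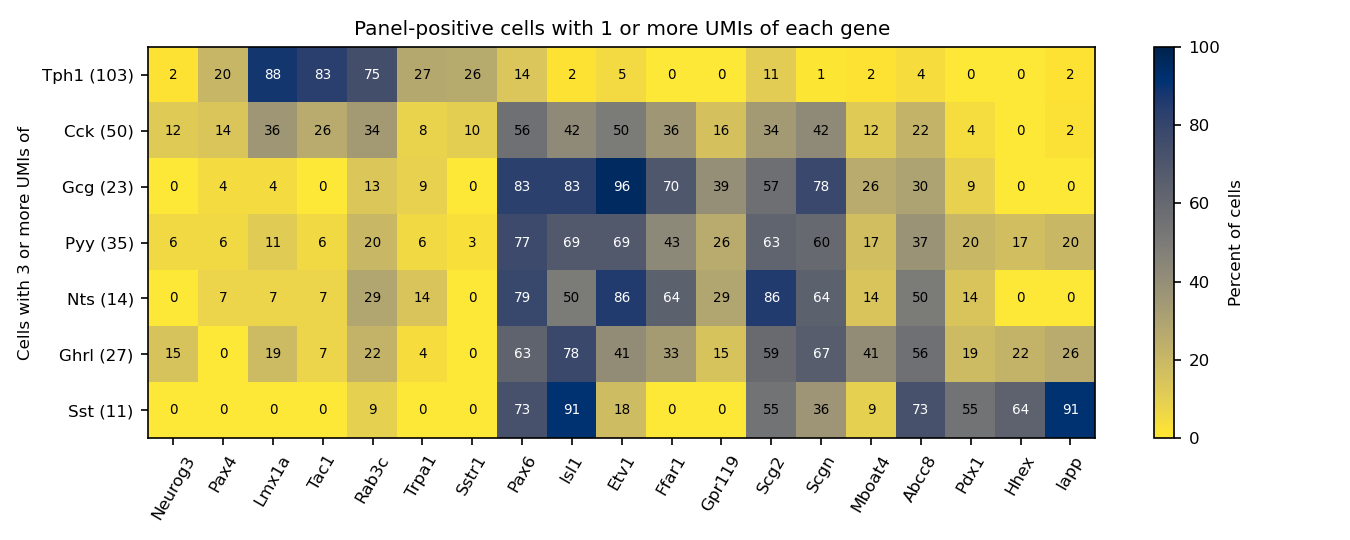
Percentage of panel-positive cells with at least 1 UMI of each of 19 listed genes (columns) among the cells positive for Tph1, Cck, Gcg, Pyy, Nts, Ghrl or Sst (rows, with the number of cells). Lmx1a and Tac1 are high in the Tph1 row (91 and 86 of 103 cells) and near 0 in the Gcg row, and Etv1 and Ffar1 show the opposite order.

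Some genes of the peptide, sensor and receptor lists were also seen mostly with one set. Tac1, the precursor of substance P, was seen in 86 of 103 Tph1-positive and 0 of 23 Gcg-positive cells. The fatty acid receptor gene Ffar1 was seen in 16 of 23 Gcg-positive cells and the lipid amide receptor gene Gpr119 in 9, both in 0 of 103 Tph1-positive cells, while the irritant channel gene Trpa1 was seen in 28 and the somatostatin receptor gene Sstr1 in 27 of the 103. Iapp, which encodes amylin, was seen in 10 of 11 Sst-positive cells, and Abcc8, a subunit of the ATP-sensitive potassium channel, in 8 of them. Mboat4, which encodes the enzyme that acylates ghrelin, was seen in 11 of 27 Ghrl-positive cells and in 17 of 270 cells of the class.

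Some listed genes gave no UMI in the 270 cells. Of 13 other peptide genes, Gast, Penk, Ppy and Npy were at 0, and of 24 hormone receptor genes Gcgr, Cckar, Sctr, Sstr4, Npy2r, Npy4r, Npy5r, Ntsr1, Ntsr2 and Ghsr were at 0. All 20 granule and 22 transcription factor genes and 15 of 17 nutrient-sensing genes were seen. Slc18a1, the vesicular monoamine transporter, was seen in 84 of 103 Tph1-positive cells but also in 44.3% of background enterocytes. Its detection was thus not restricted to the class. Background enterocytes held more UMIs per cell, so these shares do not compare its level between the classes.

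Across panel-positive cells, the genes whose log-scaled counts went most with a hormone gene included several of the listed ones. With Tph1 these were Glis3 (in none of the lists), Tac1 and Lmx1a (mean Pearson r 0.72, 0.70 and 0.68 over 4 libraries and 270 cells), and with Chga they were Chgb, Lmx1a and Tac1 (0.73, 0.65 and 0.64). Etv1 came first for Gcg (0.82 over 2 libraries with 149 cells), Pyy (0.68 over 3 libraries), Nts (0.60 over 2) and Cck (0.54 over 4), with Scg2, a secretogranin of the panel, among the next. Abcc8 came first for Ghrl (0.61 over 3 libraries) and for Sst (0.76, in 1 library with 5 positive cells), and Cpe, a prohormone-trimming enzyme, came first for Sct (0.45). Robo2 for Gcg (0.52), Grip1 for Nts (0.53) and Rgs4 and S100a11 for Sst (0.61 each, in 1 library) were also among the leading 3 and are in none of the lists. The cells of a library share its depth and its background, and few of them carry each gene, so these values are descriptions.

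The comparison of regions within the enteroendocrine-like class asked whether such cells held more of a hormone's RNA in the jejunum or in the ileum. Gip, Cck, Sct and Nts were higher in the jejunum, and none of the 10 genes was higher in the ileum, by the edgeR quasi-likelihood test, with p-values adjusted (Benjamini-Hochberg) over 6438 genes. Beside these 4 of 10 members, 1.62% of the 6438 genes were called, 0.544% higher in the jejunum and 1.07% higher in the ileum. Gip passed the count filter through its jejunal UMIs alone, so only a jejunal excess could be called for it. Its place among the 4 is therefore no support by itself. In sums over cells such as these, more cells of a kind and more RNA per cell cannot be told apart.

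Cck, the satiety and digestion hormone, was at 580, 261, 3304 and 1161 CPM, without overlap of the regions. Its log2 change from jejunum to ileum was -2.40 ± 0.48 (SE, adjusted p = 0.0338), with values of -2.50 in mouse 1 and -2.13 in mouse 2. Sct, at the 4 levels given above, had a log2 change of -1.21 ± 0.25 (adjusted p = 0.0377). Between the mice Sct was the most even of the called genes, at -1.22 in mouse 1 and -1.19 in mouse 2. Within the class 1 cell held 107 of 661 Sct UMIs in jejunum 1 and 1 cell held 199 of 600 in jejunum 2. For Cck the richest cells held 161 of 758 and 118 of 302 UMIs. Nts was at 233, 81.7, 1909 and 484 CPM, a log2 change of -2.89 ± 0.59 (adjusted p = 0.0377). Of its UMIs in the class, 1 cell held 194 of 438 in jejunum 1 and 1 cell held 95 of 126 in jejunum 2.

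Gip counted 1 UMI in the 155 ileal cells of the class and 98 UMIs in the 115 jejunal cells. Scaled to the totals this is a ratio of 142 for jejunum over ileum, with an exact counting interval of 24.9 to 5656, and the fitted log2 change was -6.81 ± 1.04 (adjusted p = 0.0131), whose size depends on the prior count. The jejunal UMIs were 79 in jejunum 1 and 19 in jejunum 2, and 1 cell of each library held 41 and 19 of them. They sat in 3 cells of jejunum 1 and 1 cell of jejunum 2. The counting interval takes each UMI as independent, so it leaves out the spread between cells and is too narrow for them.

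The calls for Cck, Sct and Nts were near the threshold. With DESeq2, Gip and Sct were called and Cck and Nts were not (adjusted p = 0.295 and 0.349), and with mitochondrial share held under 10% Gip and Cck were called and Sct and Nts were not (adjusted p = 0.122 and 0.142). Sct was also not called without jejunum 1 (adjusted p = 0.109) or with at least 5 panel genes required (adjusted p = 0.0587). Without jejunum 1 the log2 changes of Cck and Nts were -1.49 and -1.62, both called. Gip was called in every alternative that kept all 4 libraries. It passed the count filter through its jejunal UMIs alone, 79 and 19 against 1 and 0 in the ileum. Its calls therefore rested on few jejunal cells, 3 positive ones in jejunum 1 and 1 in jejunum 2 in the main fit.

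**Figure D5:**
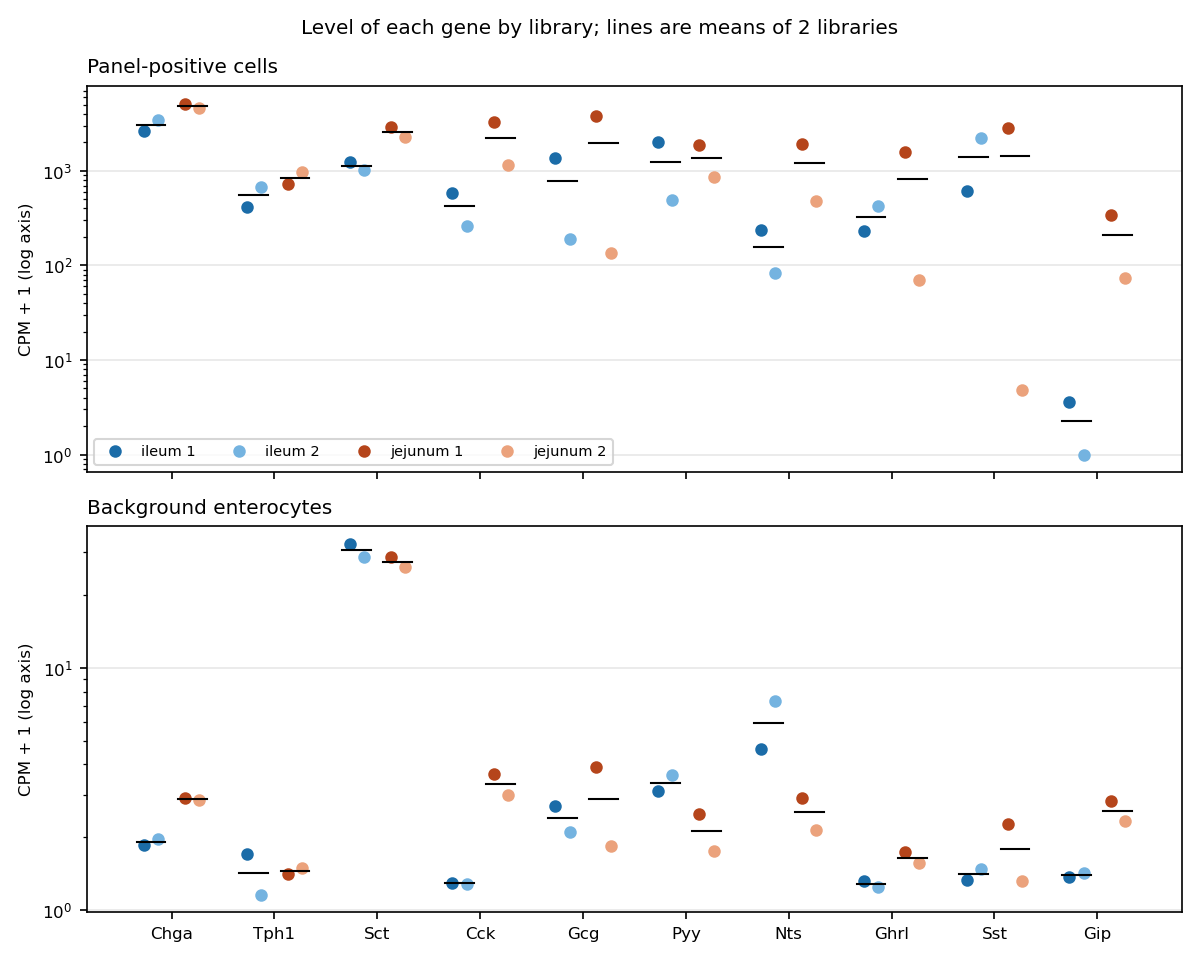
Level of each gene by library in panel-positive cells (top) and background enterocytes (bottom), as CPM + 1 on log axes, with lines at the means of 2 libraries. In the top panel Cck, Sct and Nts are higher in both jejunum libraries than in both ileum libraries, while Gcg, Sst and Ghrl are highest in jejunum 1 and lowest in jejunum 2.

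For 6 genes the regional difference was not called in these cells. Chga was at 2628, 3440, 5151 and 4598 CPM (log2 change -0.69, adjusted p = 0.183), without overlap. Tph1 was at 418, 682, 728 and 965 CPM (-0.63, adjusted p = 0.339), also without overlap. Pyy was at 2010, 487, 1878 and 857 CPM (-0.12, adjusted p = 0.956), with the regions interleaved.

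Gcg, Sst and Ghrl turned on which jejunum library was kept. Gcg was at 1369, 188, 3779 and 135 CPM (-1.31, adjusted p = 0.641). Its log2 change was 2.51 without jejunum 1 but -2.26 without jejunum 2. Sst was at 610, 2209, 2863 and 3.84 CPM (-0.03, adjusted p = 0.996). Its change was 8.34 without jejunum 1 but -1.03 without jejunum 2. The 8.34 rests on 1 Sst UMI in the class in jejunum 2, and over all kept cells the value was 2.36. Ghrl was at 231, 421, 1565 and 69.2 CPM (-1.32, adjusted p = 0.535). Its change was 2.19 without jejunum 1 but -2.27 without jejunum 2. Without ileum 1 the changes of Gcg, Sst and Ghrl were -3.39, 0.61 and -0.96. Without ileum 2 they were -0.49, -1.20 and -1.79. In mouse 2 these 3 genes were higher in the ileum and in mouse 1 in the jejunum, so they had no regional direction common to both mice.

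Of the 49 tested genes of the 5 lists, 44 had a log2 change below 0 (lower values in the ileum) and 5 above, and 1 passed the test. Summed over the 19 panel genes the level in panel-positive cells was 8700, 12158, 16230 and 14281 CPM. Median log2 changes were -0.84 for the 3 tested of 13 other peptide genes, -0.60 for 17 of 20 granule genes, -0.64 for 20 of 22 transcription factor genes, -0.49 for 7 of 17 nutrient-sensing genes and -1.25 for 2 of 24 receptor genes, while the median of all tested genes was 0.01. The called gene was Trpa1, with 7, 8, 23 and 33 UMIs (log2 change -2.40 ± 0.39, adjusted p = 0.0156), and with the mouse as a block 8 were called, all higher in the jejunum, where 5.14% of all 6438 genes were called against 1.62% without it. Iapp (0.29), Hhex (0.24), Abcc8 (0.39), Slc5a1 (0.69) and Slc15a1 (0.03) had values above 0. The granule and transcription factor lists share genes with the panel that chose these cells, such as Chgb, Pcsk1, Pax6 and Insm1. Their counts were thus not free of that choice, and the listed genes are not independent of each other. The part of the lists' shift in the values of Cck, Sct and Nts was not tested.

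Over all kept cells, Gip, Cck and Chga were higher in the jejunum and the other 7 genes were not called (20371 genes tested, of which 7.5% were called, 3.14% higher in the jejunum and 4.36% higher in the ileum). Cck averaged 2.04 ± 1.22 CPM over ileum and 12.0 ± 4.99 CPM over jejunum libraries (SD, n = 2), a log2 change of -2.62 ± 0.48 (adjusted p = 0.0371). Chga was at 12.9, 12.5, 22.0 and 27.7 CPM (-1.02 ± 0.17, adjusted p = 0.0308), but -0.17 and not called at equal depth per cell. Gip changed by -2.65 ± 0.37 (adjusted p = 0.0231). Median UMIs per kept cell were 12056, 10918, 4688 and 5882.5, so depth moved with region. At equal depth Gip (-2.997, adjusted p = 0.0127) and Cck (-1.93, adjusted p = 0.0276) were still called. With 1 library left out, Gip lost its call without ileum 1 (adjusted p = 0.0709), Cck without ileum 2 (0.0542) and Chga without ileum 1 (0.0906), ileum 2 (0.0702) or jejunum 2 (0.107).

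Sct over all kept cells differed little between regions, at 34.0 ± 4.07 CPM in the ileum and 38.4 ± 0.401 CPM in the jejunum (log2 change -0.22 ± 0.13, adjusted p = 0.323). This total joined a class where Sct was higher in the jejunum with a class of many cells where it was not, at 0.11 in background enterocytes (adjusted p = 0.623). Cck and Gip were higher in the jejunum in background enterocytes as well, at -3.03 (adjusted p = 0.0144) and -2.03 (adjusted p = 0.0249), beside 7.84% of 20219 genes called, 3.44% higher in the jejunum and 4.4% higher in the ileum. In those cells Cck stood at 0.302, 0.287, 2.66 and 1.99 CPM, following the order of the panel-positive cells of the same libraries. Whether these molecules were made in the enterocytes was not tested.

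In the same all-cell comparison 9 of the 77 tested genes of the 5 lists were called, beside 7.5% of all genes. Tac1, Chgb, Pcsk1, Insm1, Casr, Slc15a1 and Trpa1 were higher in the jejunum, and Foxa1 (0.96) and Sort1 (0.68) were higher in the ileum. Chgb, which encodes a granule protein related to chromogranin A, was at 28.7, 29.2, 46.0 and 56.9 CPM (-0.88 ± 0.17, adjusted p = 0.0404). Slc15a1, the peptide transporter of enterocytes, was at 27.7, 36.2, 67.8 and 70.5 CPM (-1.15 ± 0.19, adjusted p = 0.0291), and 29.4% of background enterocytes held a UMI of it.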

How the data were processed

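PIPseq 3′ libraries of P6 jejunum and ileum epithelium from 2 mice were counted by the authors with PIPseeker at sensitivity level 3, and the submitters' processing notes name GRCm39. The deposited matrices hold whole UMI counts per gene and called cell (36202 cells, 57951874 to 131400239 UMIs per library). Following the study's limits, genes in at least 3 cells of a library and cells with 1000 to 6000 genes and under 20% mitochondrial UMIs were kept. The members, the marker and pathway lists and the motifs were chosen with earlier results of these data known.

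Panel-positive cells held at least 3 of 19 endocrine genes, none a member. UMI counts were summed per library and compared between regions with the library as unit (edgeR 4.0.16 quasi-likelihood test, TMM factors, filterByExpr, region as the only term, Benjamini-Hochberg adjusted p under 0.05 called, R 4.3.3). A negative log2 change means lower in the ileum. Mouse 1 and mouse 2 provide the within-batch values. Both segments of a number came from the same mouse by the labels, and deviations of same-mouse libraries from their region means correlated at 0.244 over all kept cells and 0.109 in panel-positive cells. Shares have exact Clopper-Pearson 95% intervals, and 0 cells allow up to 3. Cells were also thinned to 2000 UMIs. No doublet caller was run. Named genes are the members, the genes of the lists and, for a member with at least 10 positive panel-positive cells, the 3 genes with the highest mean correlation of at least 0.3. On simulated panel-positive counts of 6038 genes, 99 of 100 genes changed by 2 log2 units were called, and 100 of 100 over all kept cells (20056 genes). The changed genes were drawn only from genes above the median level, with counts drawn independently for each library. This recovery therefore does not describe members whose UMIs sat in few cells, and says nothing about those not called. Alternatives used DESeq2 1.42.0 and other settings. Counts were summed and shares computed in Python 3.11.15 (pandas 2.3.3, scipy 1.17.1, numpy 2.4.6), and plots drawn in matplotlib 3.10.9.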

Additional observations from a re-analysis of the deposited data

Results flagged for a closer look

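For Sct and Nts the regional difference had another size or direction in panel-positive cells than in background enterocytes. The log2 ratio of the Sct level in panel-positive cells to that in background enterocytes (5 CPM added) was 5.08, 4.95, 6.47 and 6.26 in ileum 1, ileum 2, jejunum 1 and jejunum 2, a difference between region means of -1.35 (exact permutation p = 0.333, the smallest that 2 against 2 libraries allow). For Gip and Cck, higher in the jejunum in both classes, the differences were -4.46 and -1.85 (exact permutation p = 0.333 each). For Nts the ratios were 4.79, 2.94, 8.11 and 6.31, a difference of -3.35 (exact permutation p = 0.333). Nts was lower in the ileum in panel-positive cells while its level in background enterocytes was higher in both ileum libraries. The difference between the classes was not tested beyond these permutations.

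Cells left out by the limits on genes and mitochondrial share also held these genes. There were 181 cells with at least 3 Sct UMIs outside the limits, beside 454 kept ones, and 4 such cells for Nts beside 27. For the other 8 genes the number outside the limits was 0 to 3.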

How the results depend on the processing

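Of 59 summary values under alternatives, 13 moved and 46 kept their direction and side of the threshold, or lay within the bounds set for a value or count without a test. Among the 46, the ileum minus jejunum difference of the share positive for any gene was 4.47 points at 2 UMIs, 0.293 at 5 UMIs and 0.0743 after thinning, against 1.41. Of 279 values for single genes, 224 kept direction and side of the threshold, 17 lost and 14 gained a call and 24 changed sign. For all kept cells, edgeR without a count filter called 0 of 10 genes, against 3 with it, with 4 at an unadjusted p under 0.05 (Gip, Cck, Chga and Tph1), and DESeq2 called 3. Over all genes these fits called 67 of 28941, 1528 of 20371 and 3211 of 17719, and without the filter Gip, Cck and Chga were at -2.63, -2.61 and -1.002. In panel-positive cells DESeq2 called 2 members, a mitochondrial share under 10% gave 2 and no count filter gave 7. The animal as a replicate block, which the labels support, moved Sst to 0.20 and Pyy to -0.026 over all kept cells and Sst to 1.36 in panel-positive cells, and raised the called genes of the 5 lists in panel-positive cells from 1 to 8. It changed no call of a member in either comparison. Over all kept cells Pyy was -0.19 in all called cells and -0.066 without the 6% of cells with the most UMIs, Sst was 0.39 after thinning, Sct was 0.11 in background enterocytes and Nts 1.64, or 1.41 thinned. In panel-positive cells Pyy was 0.017 under the stricter mitochondrial limit and Sst 0.38 after thinning. The share of Chga-positive cells with another gene was 55.2% at 5 UMIs, 83.8% at 2 UMIs and 52.3% after thinning, and the ileum minus jejunum difference of the median UMIs per positive Chga cell was -4 thinned against -11, -4.25 without jejunum 2 and -17.75 without jejunum 1. The cause was not tested.

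With 1 library left out in panel-positive cells, Gcg, Sst and Ghrl were higher in the ileum without jejunum 1. Without jejunum 2 they were higher in the jejunum. Over all kept cells the log2 changes ranged from -2.42 to 1.504 for Gcg, -1.22 to 2.36 for Sst, -0.68 to 0.53 for Pyy, -0.76 to 0.48 for Nts and -2.17 to 0.60 for Ghrl. In panel-positive cells they ranged from -3.39 to 2.51 for Gcg, -1.20 to 8.34 for Sst, -1.50 to 0.58 for Pyy and -2.27 to 2.19 for Ghrl. Gip, Cck, Sct, Tph1 and Chga kept their sign in both. A fit with 1 library in a region assumes that it varies like the others. Shares rest on 47 to 81 panel-positive cells a library, which limits every value for a rare hormone.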
